A study of Mus musculus with 12 samples.

Results

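Hair shaft keratins are the keratins of the hair cortex and cuticle. The members were 10 listed mouse genes, looked up by symbol among the 52636 genes of the deposited count table, and 9 of them were measured (*Krt31*, *Krt32*, *Krt33a*, *Krt33b*, *Krt34*, *Krt35*, *Krt81*, *Krt84* and *Krt86*), while 1 was not analysed here. All 9 passed the filter on low counts and stood among the 18822 genes tested. The list was selected on the counts of these same libraries, with their differences between the groups known, so their levels, and the counts of calls among them given further on, are a description that supports nothing about the list.

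Dorsal skin of C57BL/6 mice at 3 months of age was profiled by RNA-seq on day 14 in 4 groups of 3 libraries. WT mice had intact *Cdc42* and received the control treatment, the vehicle of normal saline with HPMC. KO mice lacked *Cdc42* in cells in which the keratin K5 promoter drives Cre and in the descendants of such cells, and received the same control treatment. Continuous treatment with zinc oxide nanoparticles gave, in the same genotypes, the groups KO+ZnO NPs and WT+ZnO NPs. The WT mice of the study carried the floxed allele without Cre, and the back skin of all groups was shaved before treatment.

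Keratins assemble as pairs of a type I (acidic) and a type II (basic) chain. Keratinocytes of the skin surface and of the outer layers of the follicle use the epithelial pairs, whereas cells that leave the hair matrix to form the shaft switch to the hair keratins, whose many cysteines are cross-linked with keratin-associated proteins. The follicle makes a shaft in its growth phase, anagen, and stops in the regression and rest phases. Within the growing shaft *Krt35* belongs to the genes used early, from the matrix upward, *Krt32* is a cuticle keratin, and *Krt31*, *Krt33a*, *Krt33b*, *Krt34*, *Krt81* and *Krt86* belong to the cortex higher up. *Krt84* is best known from the tongue papillae.

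The 6 type I members lay together on chromosome 11 and the 3 type II members on chromosome 15 (GRCm38, GENCODE annotation). *Krt33a* (100011195 to 100016212), *Krt33b* (100023634 to 100029868), *Krt34* (100037347 to 100041554), *Krt31* (100046646 to 100050551), *Krt32* (100080848 to 100088226) and *Krt35* (100092193 to 100096241) followed each other on the minus strand of chromosome 11. On chromosome 15, *Krt81* (101459061 to 101463751) and *Krt84* (101525026 to 101532820) lay on the minus strand and *Krt86* (101473478 to 101479986) on the plus strand. Each is annotated as protein-coding. Neighbours in these clusters are alike in sequence. Of the 50-base stretches in its transcripts, *Krt86* shared 43.3% with other genes, mostly *Krt81*, *Krt83* and *Krt87*, and *Krt81* shared 37.7% with *Krt86*, *Krt83* and *Krt87*. The share was 33.1% for *Krt34*, 28.1% for *Krt31*, 24.2% for *Krt33b* and 17.8% for *Krt33a*, each with others of these 4. It was 6.46% for *Krt32*, with *Gm11571*, an annotated gene that overlaps it, 2.74% for *Krt35* and 0 for *Krt84*. The split of counts within the group of *Krt31*, *Krt33a*, *Krt33b* and *Krt34* and within that of *Krt81* and *Krt86* is uncertain to that extent, whereas *Krt35* and *Krt84* are nearly free of it.

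The RefSeq promoter table (GRCm38.p6) held 5 of the 9 genes, and the 250 bases before their start sites are shown because the regulators described further on, *Lef1* and *Hoxc13*, are known to bind the letters searched for. Capitals mark matches on either strand. TATAAA is the TATA box. CTTTGAA is a form of the letters bound by TCF/LEF factors, and its other forms searched for were CTTTGTT as well as CTTTGAT. Hox factors bind letters of which TTTATNA is a form, with TTTATNG as the other form, and both can overlap a TATA box. The 4 type I promoters come first and that of *Krt84*, the gene whose levels stood apart, comes last.
Krt31 (chr11:100050552-100050801, minus strand): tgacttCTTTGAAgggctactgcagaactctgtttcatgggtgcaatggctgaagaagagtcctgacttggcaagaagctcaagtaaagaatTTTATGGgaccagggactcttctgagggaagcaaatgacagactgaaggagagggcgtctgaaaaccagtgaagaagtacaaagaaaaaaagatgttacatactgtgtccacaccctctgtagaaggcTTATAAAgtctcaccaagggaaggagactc
Krt32 (chr11:100088270-100088519, minus strand): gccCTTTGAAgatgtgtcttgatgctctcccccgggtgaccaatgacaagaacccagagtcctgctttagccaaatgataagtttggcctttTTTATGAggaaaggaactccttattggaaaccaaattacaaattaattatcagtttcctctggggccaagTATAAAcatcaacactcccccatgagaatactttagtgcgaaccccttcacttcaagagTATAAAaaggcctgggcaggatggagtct
Krt33b (chr11:100029869-100030118, minus strand): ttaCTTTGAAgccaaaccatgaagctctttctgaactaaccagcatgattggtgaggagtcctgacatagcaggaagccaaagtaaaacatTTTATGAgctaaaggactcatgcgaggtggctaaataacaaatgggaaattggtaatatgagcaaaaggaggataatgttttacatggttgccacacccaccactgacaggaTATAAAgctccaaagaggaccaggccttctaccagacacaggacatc
Krt34 (chr11:100041555-100041804, minus strand): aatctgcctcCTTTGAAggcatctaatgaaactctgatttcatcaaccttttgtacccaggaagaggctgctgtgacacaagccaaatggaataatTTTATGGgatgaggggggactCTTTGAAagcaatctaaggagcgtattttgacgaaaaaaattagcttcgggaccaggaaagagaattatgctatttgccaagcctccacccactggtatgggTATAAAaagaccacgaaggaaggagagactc
Krt84 (chr15:101532821-101533070, minus strand): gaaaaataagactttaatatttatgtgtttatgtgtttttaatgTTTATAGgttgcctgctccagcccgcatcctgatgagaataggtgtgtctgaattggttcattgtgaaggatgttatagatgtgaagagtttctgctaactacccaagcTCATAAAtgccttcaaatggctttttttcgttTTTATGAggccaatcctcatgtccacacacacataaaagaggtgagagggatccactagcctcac

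The counts below are over the whole windows of the table, 250 bases before to 50 after the start. The TATA box letters were in 5 of 5 member promoters, on the gene's own strand in 4, against 13.6% of the 32851 promoters in the table. CTTTGAA was in 4 of 5, against 5.14% of all, whereas CTTTGTT was in 0 of 5, against 5.85%, and so was CTTTGAT, against 3.73%. TTTATNA was in 4 of 5, against 14.1%, and TTTATNG in 3 of 5, against 10.9%. The 4 type I promoters held these letters in the same order and at nearly the same distance. In each of them, CTTTGAA began between 247 and 240 bases before the start and was followed, 86 to 89 bases further on, by TTTATNA or TTTATNG. The same pair on the gene's strand, at this distance, was in 5 of the 32851 promoters (0.0152%), which were those 4 and that of *Tpra1*. The distance was taken from the members themselves after their sequences were seen, and the 4 genes are neighbouring copies, so this describes how alike they are and is no sign of binding. The *Krt84* promoter lacked CTTTGAA, and its TATA box letters lay on the other strand.

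**Figure D1:**
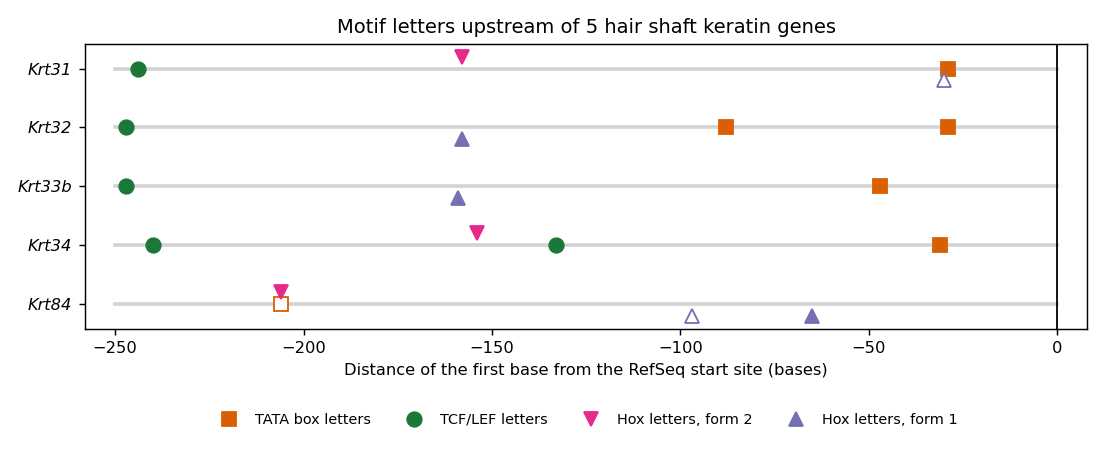
Position of the motif letters in the 250 bases upstream of 5 hair shaft keratin genes, as distance from the RefSeq start site in bases. Filled symbols are on the gene's strand and open symbols on the other, form 1 is TTTATNA and form 2 is TTTATNG. The 4 type I genes (Krt31, Krt32, Krt33b and Krt34) share an arrangement that Krt84 does not have.

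Total counts were 21076320 to 28867802 per library, and levels are given as CPM, a gene's count relative to the library total scaled by edgeR's TMM factors. *Cdc42* was at 606 to 628 CPM in the WT libraries and 415 to 464 in the KO libraries, but at 311 to 350 in those labelled WT+ZnO NPs and 314 to 453 in those labelled KO+ZnO NPs, so the transcript goes against the label of the first and both groups given nanoparticles are named by label only. Y-linked transcripts were at 215 to 245 CPM in 5 libraries, all 3 of WT+ZnO NPs, KO replicate 1 and KO+ZnO NPs replicate 1, and at 0.0452 CPM or less in the other 7, although the study's methods describe the KO mice as female. In bulk skin, fewer cells of a type and less RNA per cell cannot be told apart.

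The WT libraries held almost no hair shaft keratin transcripts. Their 9 members summed to 3.44, 0.877 and 2.38 CPM, of which *Krt84* and *Krt32* made up most. The sums were 485, 1449 and 846 CPM in the WT+ZnO NPs libraries, 1504, 1.65 and 197 CPM in the KO libraries, and 1163, 167 and 35.5 CPM in those of KO+ZnO NPs. All WT+ZnO NPs libraries were thus high, and KO replicate 2 lay within the range of the WT libraries while KO replicate 1 was the highest of all 12. The sum followed the Y-linked transcripts without overlap, from 485 to 1504 CPM in the 5 libraries that held them and from 0.877 to 197 CPM in the 7 that did not. By single gene, 4 of the 9 members were higher without overlap in the libraries with Y-linked transcripts, as were 1.39% of all genes tested, and 5 overlapped. Since Y-linked transcripts were present throughout WT+ZnO NPs and absent throughout WT, they and ZnO NPs cannot be told apart in that comparison.

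**Figure D2:**
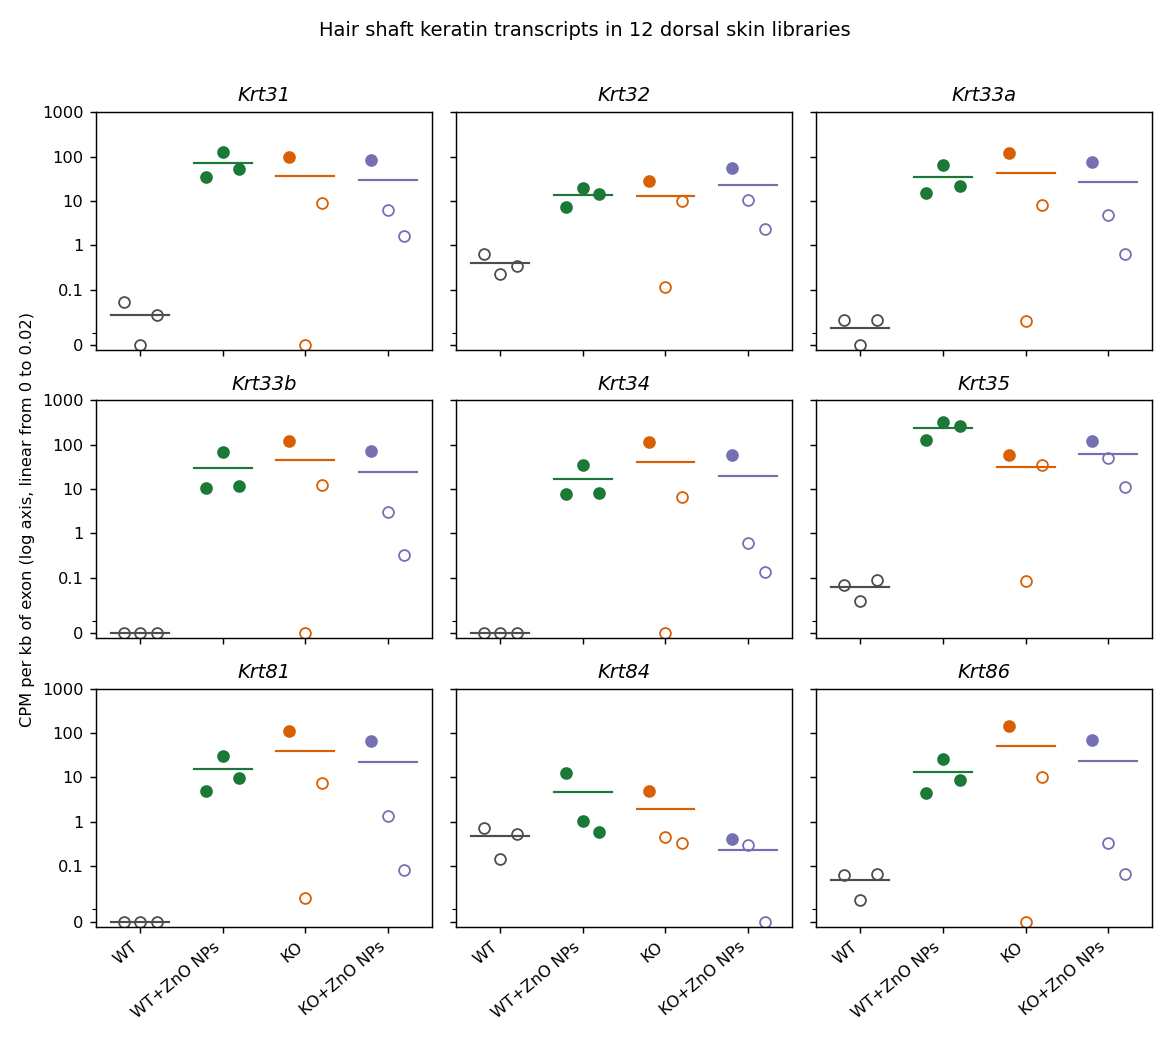
Level of each member in the 12 libraries, in CPM per kilobase of exon on a logarithmic axis that is linear from 0 to 0.02. Points are libraries, in order of replicate number, filled where Y-linked transcripts were present and open where they were not, and bars are group means (n = 3). The WT libraries lie at or near 0 for every member but Krt32 and Krt84. Where no library is at 0, the highest KO library is 15 (Krt84) to 6240 (Krt33a) times the lowest. In KO+ZnO NPs it is 11.2 (Krt35) to 1070 (Krt86) times the lowest.

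*Krt35*, the early keratin, had the highest mean over the 12 libraries per kilobase of exon. Its level was 0.168, 0.0702 and 0.212 CPM in the WT libraries and 307, 795 and 621 CPM in the WT+ZnO NPs libraries. In the KO libraries it was 144, 0.201 and 82.3 CPM, and in those of KO+ZnO NPs 296, 118 and 26.6 CPM. The WT+ZnO NPs libraries lay above all others, and KO replicate 2 lay inside the WT range. The log2 fold change was 11.89 ± 2.09 (SE) for WT+ZnO NPs against WT and 8.96 ± 1.95 for KO against WT. From pooled counts the WT+ZnO NPs level was 3895-fold that of WT (exact 95% interval 2177 to 7803, counting error only).

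*Krt32*, the cuticle keratin, was detected in every WT library, at 1.09, 0.386 and 0.595 CPM, and was at 12.6, 33.8 and 24.8 CPM in the WT+ZnO NPs libraries. KO held 48.2, 0.201 and 16.8 CPM and KO+ZnO NPs 96.8, 18.5 and 4.09 CPM. Its highest library was KO+ZnO NPs replicate 1, and KO replicate 2 lay below all WT libraries. The pooled fold of WT+ZnO NPs over WT was 34.7 (exact 95% interval 26.3 to 46.8) and that of KO over WT 31.8 (24.0 to 42.9), so that the intervals overlapped. The latter was 12.1 without KO replicate 1 and 48.7 without KO replicate 2.

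The type I cortex keratins shared the order of the libraries within the WT+ZnO NPs, KO and KO+ZnO NPs groups. *Krt31* was at 0.0839, 0 and 0.0425 CPM in the WT libraries and at 53.4, 201 and 84.6 CPM in the WT+ZnO NPs libraries. It was at 156, 0 and 14.4 CPM in KO and at 129.5, 9.62 and 2.53 CPM in KO+ZnO NPs. WT and WT+ZnO NPs did not overlap, and KO replicate 2 held no count. *Krt33a*, its close relative, was at 0.0420, 0 and 0.0425 CPM in WT, at 30.3, 136 and 44.0 CPM in WT+ZnO NPs, at 251, 0.0402 and 16.6 CPM in KO and at 156, 10.03 and 1.31 CPM in KO+ZnO NPs. *Krt33b* had no count in any WT library, which over the group allows up to 0.0396 CPM, and was at 16.4, 107 and 18.7 CPM in WT+ZnO NPs, at 193, 0 and 19.9 CPM in KO and at 112, 4.94 and 0.523 CPM in KO+ZnO NPs. Both had their highest level in KO replicate 1 rather than in a WT+ZnO NPs library. *Krt34* likewise had no count in WT and was at 12.8, 56.7 and 13.4 CPM in WT+ZnO NPs, at 186, 0 and 10.5 CPM in KO and at 94.1, 0.957 and 0.218 CPM in KO+ZnO NPs. The level in WT+ZnO NPs over that floor of 3 counts per group was at least 1128-fold higher than in WT for *Krt33b* and at least 665-fold higher for *Krt34*. These limits fell to 444-fold and 331-fold without WT+ZnO NPs replicate 2 and to 704-fold and 415-fold without WT replicate 2.

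*Krt81* and *Krt86* are the type II cortex keratins. *Krt81* had no count in WT and was at 10.4, 65.3 and 20.4 CPM in WT+ZnO NPs, at 233, 0.0402 and 15.9 CPM in KO and at 138, 2.82 and 0.174 CPM in KO+ZnO NPs. *Krt86* was at 0.126, 0.0351 and 0.127 CPM in WT, at 8.52, 51.4 and 17.2 CPM in WT+ZnO NPs, at 279, 0 and 19.9 CPM in KO and at 139.95, 0.655 and 0.131 CPM in KO+ZnO NPs. A single library, replicate 1, held 99.4% of the *Krt86* level summed over the KO+ZnO NPs libraries and 93.3% of that over the KO libraries. The means of these groups are therefore close to the values of those libraries divided by the number of replicates.

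*Krt84* stood apart from the other members. It was at 1.93, 0.386 and 1.36 CPM in WT, the highest WT mean of any member also per kilobase, and at 33.5, 2.74 and 1.58 CPM in WT+ZnO NPs. It was at 13.2, 1.165 and 0.881 CPM in KO and at 1.05, 0.806 and 0 CPM in KO+ZnO NPs. WT+ZnO NPs replicate 1, the library of that group with the lowest level of every other member, held the most. WT and WT+ZnO NPs overlapped for *Krt84* alone among the members, and KO+ZnO NPs replicate 1, rich in the other members, lay within the WT range.

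The group order of mean levels differed from member to member. Per kilobase of exon, the mean of *Krt35* was 239.7 CPM in WT+ZnO NPs, 61.4 in KO+ZnO NPs, 31.6 in KO and 0.0627 in WT, whereas that of *Krt86* was 50.8 CPM in KO, 23.9 in KO+ZnO NPs, 13.1 in WT+ZnO NPs and 0.0490 in WT. For *Krt86*, the WT+ZnO NPs, KO and KO+ZnO NPs groups overlapped one another, so their order is not beyond the spread of the libraries. The libraries of KO and KO+ZnO NPs likewise overlapped for *Krt35*. Only *Krt35* and *Krt84* of the 9 were lower in every KO+ZnO NPs library than in every WT+ZnO NPs library, as were 10.8% of all genes tested, and edgeR called neither in that comparison.

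Counts of members past edgeR's quasi-likelihood test, at a Benjamini-Hochberg adjusted p below 0.05 over all 18822 genes, are given as part of the description and beside the share of all genes called. For WT+ZnO NPs against WT, 5 members were called higher (*Krt31*, *Krt32*, *Krt33a*, *Krt33b* and *Krt35*), where 20.8% of all genes were called higher, and 8 of the 9 were higher without overlap between the groups, as were 30.1% of all genes. The median log2 fold change of the 9 was 11.29, or 9.59 with the members without WT counts at their lower bound, against 0.06 over all genes. The count was 2 when any 1 WT library was left out, 8 without KO replicate 1, KO replicate 2, KO+ZnO NPs replicate 1 or KO+ZnO NPs replicate 3, and 1 (*Krt35*) with a term for Y-linked transcripts. Over all genes, 3922 of 18822 were called higher with all 12 libraries. This number was 2675 to 2958 without 1 WT library and 3782 to 4636 without 1 of those KO or KO+ZnO NPs libraries. With the term it was 1588.

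For KO against WT, 1 member (*Krt35*) was called higher, where 4.61% of all genes were, and the median log2 fold change was 10.30 against 0.01. The groups overlapped for 8 members, since KO replicate 2 resembled WT, and the exception, *Krt81*, rested on 1 count in that library against none in WT, while 18.6% of all genes were higher in KO without overlap. The count was 0 without any 1 WT library, 4 without KO replicate 2 or without KO+ZnO NPs replicate 1, 3 without KO+ZnO NPs replicate 3, and 0 among the 7 libraries without Y-linked transcripts. Over all genes, 867 of 18822 were called higher with all 12 libraries. This number was 181 to 402 without 1 WT library and 579 without KO replicate 2. It was 905 and 1203 without KO+ZnO NPs replicates 1 and 3, and 380 among the 7 libraries. DESeq2 called 8 members higher in this comparison, beside 7.8% of the genes it tested, and 8 for WT+ZnO NPs against WT, beside 19.9%.

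In the comparisons that hold KO+ZnO NPs, edgeR called 0 members. Against KO, the median log2 fold change was -0.82 (0.01 over all genes), the groups overlapped for all 9 members (34.7% of all genes did not overlap), 0 had an unadjusted p below 0.05, and edgeR called 14.7% of all genes in either direction. DESeq2 also called 0 members, where it called 22.1% of the genes it tested. The replicate numbers are not known to pair the animals. Taken by these numbers, *Krt84* was lower in KO+ZnO NPs in 3 of 3 pairs, as were 27.2% of all genes, whereas the other 8 members were lower in pair 3 and higher in pair 2. Against WT+ZnO NPs, the median was -0.27 (0.04 over all genes), 1 had an unadjusted p below 0.05, DESeq2 called 1 (*Krt84*), and 3.28% of all genes were called by edgeR and 11.8% by DESeq2. The approximate standard errors of these log2 fold changes were wide, at 1.25 to 2.08 for *Krt35* and *Krt81* against KO. The comparisons with KO and with WT+ZnO NPs share the KO+ZnO NPs libraries.

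The difference between the effects of ZnO NPs in KO and in WT (the interaction) was below 0 for all 9 members, with a median of -11.56 on the log2 scale against 0.02 over all genes. *Krt35* was called lower, at -10.93 ± 2.33 (SE), where 3.59% of all genes were called lower. The call was lost when any 1 WT library or WT+ZnO NPs replicate 3 was left out and with the term for Y-linked transcripts, the count being 0 each time, and the count was 4 without KO+ZnO NPs replicate 1 and 3 without KO replicate 2. Over all genes, 676 of 18822 were called lower with all 12 libraries. This number was 155 to 374 without 1 WT library, 208 without WT+ZnO NPs replicate 3 and 32 with the term. It was 636 without KO+ZnO NPs replicate 1 and 602 without KO replicate 2. The interaction is taken against a WT group in which most members had few or no counts, so its size depends on how the fit treats counts near 0.

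The make-up of the hair shaft keratin transcripts differed between libraries. It was computed per kilobase of exon in the 8 libraries with at least 100 counts over the members. *Krt35* made up 57.1%, 47.0% and 66.9% of the summed level in the WT+ZnO NPs libraries, 7.49% in KO replicate 1, 34.9% in KO replicate 3, and 20.5%, 64.3% and 68.0% in KO+ZnO NPs. Type I members made up 90.2% to 95.1% in WT+ZnO NPs, 68.0% and 81.7% in KO, and 77.3%, 97.4% and 99.1% in KO+ZnO NPs. The libraries richest in *Krt86*, *Krt81* and *Krt34* were those with the smallest share of *Krt35*, KO replicate 1 and KO+ZnO NPs replicate 1.

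**Figure D3:**
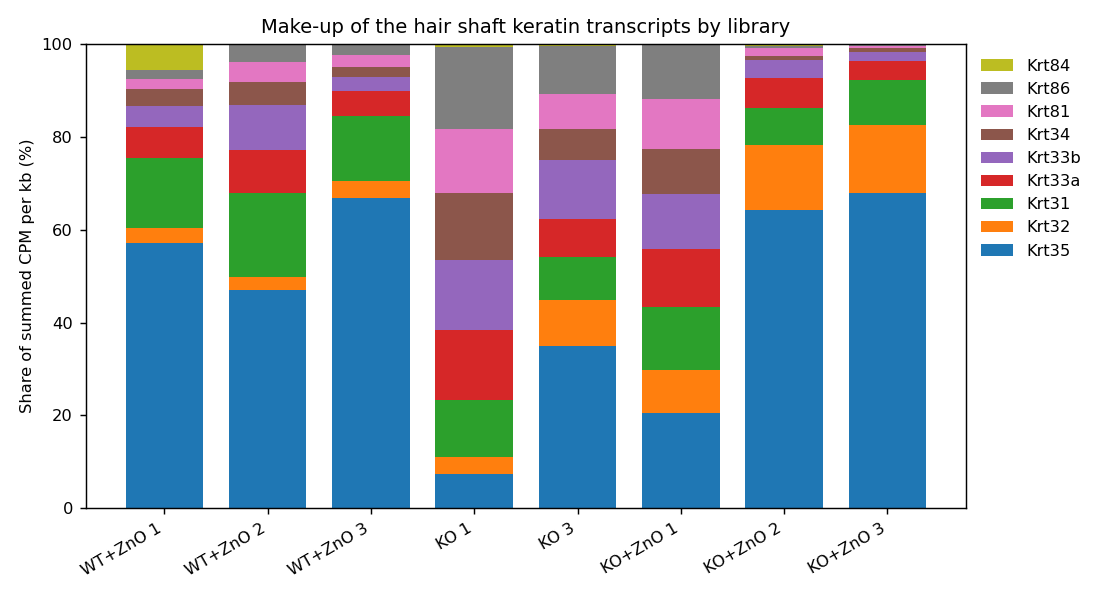
Share of each member in the summed CPM per kilobase of the 9 members, in percent, for the 8 libraries with at least 100 counts over the members. Bars are single libraries. Krt35 takes from 7.49% in KO replicate 1 to 68.0% in KO+ZnO NPs replicate 3.

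The ratio of *Krt35*, the early keratin, to *Krt86*, a later cortex keratin, put a number on this. Per kilobase it was 29.5 in WT+ZnO NPs replicate 1 (exact 95% interval 25.7 to 33.9, counting error only), 12.7 in replicate 2 (11.9 to 13.5) and 29.5 in replicate 3 (26.8 to 32.5). It was 0.424 in KO replicate 1 (0.406 to 0.442) and 3.38 in KO replicate 3 (3.05 to 3.76). In the KO+ZnO NPs libraries it was 1.73 (1.66 to 1.81), 148 (86.4 to 278) and 167 (56.7 to 810). The WT+ZnO NPs values thus lay above both measurable KO values, and the KO+ZnO NPs values lay on either side of the WT+ZnO NPs range, so the order of KO+ZnO NPs and WT+ZnO NPs differed from library to library. The intervals of the last 2 libraries are wide because *Krt86* had only 13 and 3 counts there.

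**Figure D4:**
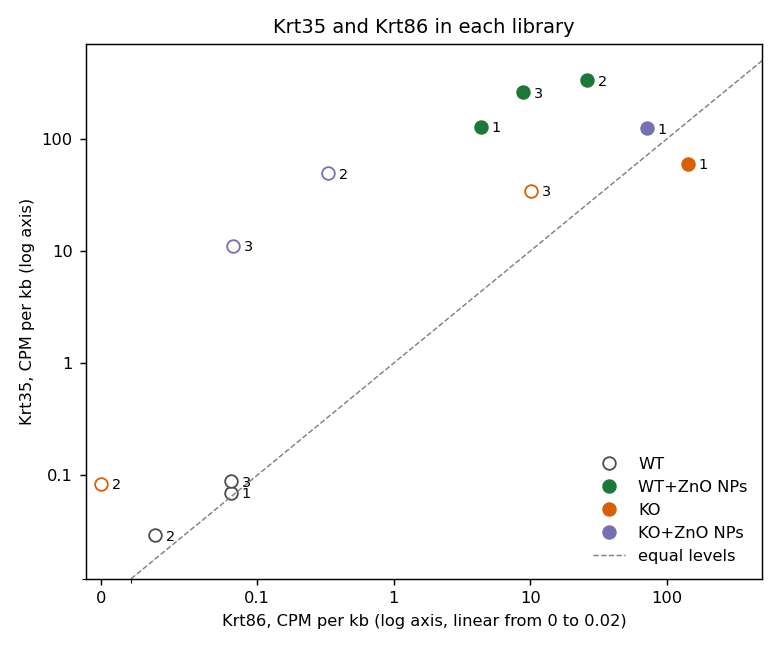
Krt35 against Krt86 in each library, both in CPM per kilobase on logarithmic axes (the Krt86 axis is linear from 0 to 0.02), with the replicate number beside each point and points filled where Y-linked transcripts were present. The dashed line marks equal levels. KO+ZnO NPs replicates 2 and 3 hold Krt35 at 49.4 and 11.1 CPM per kilobase with almost no Krt86, whereas KO replicate 1 lies below the line.

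Across the 12 libraries the levels of the members varied together, apart from *Krt84*. On log2(CPM + 1), the Pearson correlation over libraries was 0.758 to 0.993 for the 28 pairs without *Krt84* and 0.317 to 0.511 for the 8 pairs with it. The pair with the lowest value among the 28 was *Krt35* with *Krt86*, and *Krt34* with *Krt86*, *Krt34* with *Krt81* and *Krt33b* with *Krt81* were the highest. These libraries share groups and a few high samples, and the related genes share sequence, so the values are a description of these 12 libraries.

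Genes outside the keratin and keratin-associated protein families, which were set by symbol alone so that predicted genes of these families may remain, were ranked by their correlation with the members' mean standardized pattern over the 12 libraries, among the 15905 genes whose mean reached 1 CPM. The 10 closest were *Gja3* (r = 0.986), which encodes a gap junction connexin, *Dsg4* (0.986), the desmoglein of the hair cortex, *Gprc5d* (0.980), an orphan receptor made in the hair shaft, and *Ly6g6d* (0.977), *Csdc2* (0.977), *Calhm4* (0.972), *Gm10229* (0.969), *Tgm6* (0.967), *A030005L19Rik* (0.967) and *Upk1b* (0.967). *Dsg4*, for example, was at 0.0420, 0.105 and 0 CPM in WT, at 8.76, 21.9 and 17.8 CPM in WT+ZnO NPs, at 42.3, 0.0803 and 10.5 CPM in KO and at 37.6, 4.13 and 0.348 CPM in KO+ZnO NPs. Like *Krt86*, it was highest in replicate 1 of KO and of KO+ZnO NPs. Of the 100 closest genes of any family, down to r = 0.909, 7 were other keratins and 28 were keratin-associated proteins by symbol.

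The other hair keratins, a list of 6 genes that are not members, had the same libraries high. For WT+ZnO NPs against WT 5 of the 6 were called higher by edgeR, and their median log2 fold change was 8.12. *Krt83* was at 0.294, 0.0351 and 0.382 CPM in WT and at 37.3, 230.3 and 57.2 CPM in WT+ZnO NPs, with a log2 fold change of 8.86 (adjusted p = 0.0184, edgeR). The cuticle keratin *Krt82* had a log2 fold change of 7.48 (adjusted p = 0.017), *Krt87* one of 8.75 (0.020), *Krt36* one of 3.99 (0.0263), *Krt39* one of 6.79 (0.0327) and *Krt40*, which was not called, one of 9.20 (0.0797). *Krt40* was called in 5 of the 20 alternatives run for it, both DESeq2 fits, edgeR on only the groups compared, the replicate block and the fit without KO+ZnO NPs replicate 1. The calls of the other 5 were lost when any 1 WT library was left out and with the term for Y-linked transcripts, and those of *Krt36* and *Krt39* also without WT+ZnO NPs replicate 2 or 3, that of *Krt39* without replicate 1 too (adjusted p up to 0.0988). Between KO and WT edgeR called 0 of the 6, while 5 had an unadjusted p below 0.05 and DESeq2 called 5, and for KO+ZnO NPs against KO all 3 of these counts were 0. Per kilobase *Krt36* was the highest of the 6 in WT, where it was at 0.965, 2.88 and 2.93 CPM.

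Keratin-associated proteins fill the space between the keratin filaments of the shaft, and their correlation with the members' pattern ranged from 0.687 to 0.998 among those tested. Of 58 genes in the list 55 were tested, and 11 were called higher for WT+ZnO NPs against WT, a share close to the 20.8% of all genes. Between KO and WT edgeR called 0 of the 55, while 45 had an unadjusted p below 0.05 and DESeq2 called 43. *Krtap8-1* was at 0, 0 and 0.127 CPM in WT, at 60.8, 196 and 52.1 CPM in WT+ZnO NPs, at 509, 0.0402 and 18.4 CPM in KO and at 219.8, 8.62 and 0.653 CPM in KO+ZnO NPs. It had the highest correlation with the members' pattern of any gene (r = 0.998), followed by *Krtap7-1* (0.997), while that of *Krtap11-1* was 0.990. These 3 had log2 fold changes for WT+ZnO NPs against WT of 11.16 (adjusted p = 0.0242, edgeR), 11.58 (0.0221) and 11.74 (0.0173), calls that were lost without any 1 WT library and with the term for Y-linked transcripts. The list summed to 4410.4 CPM in KO replicate 1 and to 8.14 CPM in KO+ZnO NPs replicate 3, in which the members still summed to 35.5 CPM.

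Among other proteins of the shaft, 3 were named by level, *S100a3*, a calcium-binding protein of the cuticle, *Padi3*, an enzyme that modifies arginine in hair follicle proteins, and *Selenbp1*, a selenium-binding protein. *S100a3* was at 0.595 to 0.772 CPM in WT and at 90.0 to 312 CPM in WT+ZnO NPs, with a log2 fold change of 8.32 (adjusted p = 0.00605, edgeR), a call that was lost only with the term for Y-linked transcripts. *Padi3* was at 0.420 to 0.983 CPM in WT and at 47.1 to 96.8 CPM in WT+ZnO NPs, with 6.71 (adjusted p = 0.0135, edgeR), a call lost with that term and, at 0.0506, without WT replicate 1. Of the 8 genes in the list, 6 were called higher and 1 lower in this comparison, and 2 higher for KO against WT. For KO against WT 6 had an unadjusted p below 0.05 and DESeq2 called 6. The KO calls of *S100a3* (6.74, adjusted p = 0.0478) and *Padi3* (7.19, 0.0411) were lost without any 1 library of WT or WT+ZnO NPs and without KO replicate 1 or 3 (adjusted p up to 0.170 and 0.147), with the term for Y-linked transcripts and among the 7 libraries without them. That of *S100a3* was also lost without KO+ZnO NPs replicate 2 and with edgeR on only the groups compared. *Selenbp1* did not follow the members (r = 0.179). It was at 50.02, 84.3 and 97.3 CPM in WT, at 84.7, 167 and 195 CPM in WT+ZnO NPs, at 35.9, 30.4 and 33.7 CPM in KO and at 49.1, 16.1 and 41.8 CPM in KO+ZnO NPs. Every KO+ZnO NPs library lay below every WT+ZnO NPs library, with a log2 fold change of -2.06 (adjusted p = 0.0368, edgeR), a call that was lost without any 1 library other than WT+ZnO NPs replicate 1 or KO+ZnO NPs replicate 3 (adjusted p up to 0.142), with edgeR on only the groups compared and with the term for Y-linked transcripts. It was not called for WT+ZnO NPs against WT (0.95, adjusted p = 0.0821, edgeR) or for KO against WT (-1.21, 0.0929), and both were called without KO+ZnO NPs replicate 2, the former also without WT+ZnO NPs replicate 1. On only the groups compared DESeq2 called both and edgeR called the latter, which DESeq2 also called on all libraries.

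The inner root sheath, the sleeve of cells that moulds the shaft as it grows, was measured by a list of 9 genes, keratins and trichohyalin. *Krt71* was at 0.420, 0 and 0.170 CPM in WT and at 220.3, 1120.3 and 1808 CPM in WT+ZnO NPs. It was at 3557, 0.201 and 1022 CPM in KO and at 2541, 2014 and 61.8 CPM in KO+ZnO NPs. KO+ZnO NPs replicate 2 thus held as much *Krt71* as the highest WT+ZnO NPs library while its *Krt86* was at 0.655 CPM. Per kilobase, the ratio of *Krt86* to *Krt71* was 0.0874 in KO replicate 1, 0.0613 in KO+ZnO NPs replicate 1 and 0.000362 in KO+ZnO NPs replicate 2. For WT+ZnO NPs against WT 9 of the 9 were called higher, with *Krt71* at a log2 fold change of 12.40 (adjusted p = 0.00671, edgeR), *Krt25* at 12.10 (0.00628) and *Tchh*, trichohyalin, at 6.80 (0.0166). Between KO and WT 6 of the 9 were called higher, with *Krt71* at 12.95 (adjusted p = 0.0274, edgeR), *Krt25* at 12.40 (0.0274) and *Tchh* at 8.62 (0.0335), calls that were lost without any 1 WT library, without KO replicate 1 or 3 (adjusted p up to 0.122, 0.124 and 0.140) and among the 7 libraries without Y-linked transcripts. That of *Tchh* was also lost with the term for Y-linked transcripts. The call of *Tchh* for WT+ZnO NPs against WT was lost without any 1 WT library, and the calls of all 3 genes in that comparison were lost with the term for Y-linked transcripts.

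**Figure D5:**
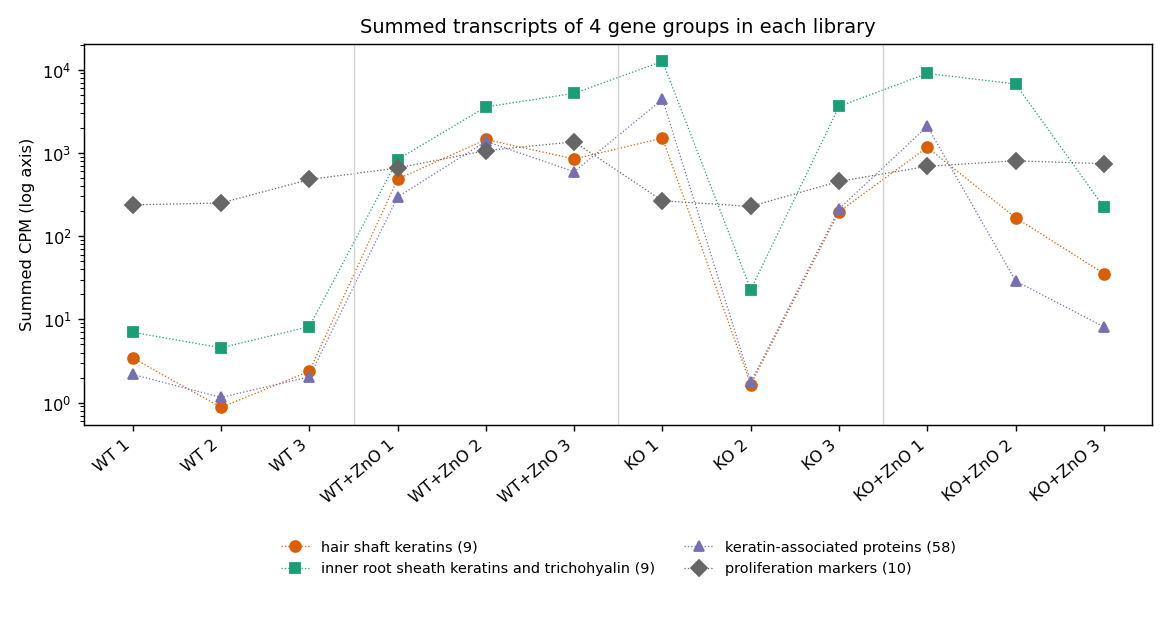
Summed CPM, on a logarithmic axis, of the 9 hair shaft keratins, the 9 inner root sheath genes, 58 keratin-associated proteins and 10 proliferation markers in each of the 12 libraries. Dotted lines join the values of a group of genes for the eye only and grey lines part the groups. In KO+ZnO NPs replicate 2 the inner root sheath sum is 6717 CPM beside 28.98 CPM of keratin-associated proteins.

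Regulators of the shaft were a list of 18 genes of the WNT, BMP and homeobox families and others, and 13 of them were called higher for WT+ZnO NPs against WT. *Hoxc13*, a homeobox factor that binds hair keratin promoters, was at 1.34, 0.386 and 1.57 CPM in WT and at 92.3, 112 and 155 CPM in WT+ZnO NPs. It was at 48.5, 4.78 and 26.3 CPM in KO and at 69.4, 17.6 and 14.7 CPM in KO+ZnO NPs, so every library of these 3 groups lay above WT. Its log2 fold change was 6.78 (SE 1.008) for WT+ZnO NPs against WT (adjusted p = 0.000507, edgeR), past the threshold in all 21 alternatives run for it. For KO against WT it was 4.61 ± 0.93 (adjusted p = 0.0161, edgeR), lost without any 1 WT library (adjusted p up to 0.0821) and among the libraries without Y-linked transcripts. KO replicate 2, with members at the WT level, held 4.78 CPM of *Hoxc13*, above every WT library.

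*Lef1*, the WNT effector of the hair matrix, was at 1.55, 0.562 and 1.997 CPM in WT, at 32.5, 77.5 and 89.5 CPM in WT+ZnO NPs, at 9.87, 2.45 and 10.7 CPM in KO and at 27.8, 15.7 and 13.0 CPM in KO+ZnO NPs. Its log2 fold change for WT+ZnO NPs against WT was 5.61 ± 0.71 (adjusted p = 0.000197, edgeR), past the threshold in all 21 alternatives. *Msx2*, a homeobox factor of the matrix, was at 0.562 to 1.61 CPM in WT and at 54.2 to 96.3 CPM in WT+ZnO NPs, with 6.32 ± 1.02 (adjusted p = 0.000843, edgeR) and likewise past the threshold in all 21. *Dlx3* (4.48, adjusted p = 0.00276, edgeR) and *Foxn1*, the factor lacking in nude mice (3.05, 0.00563), lost their calls only with the term for Y-linked transcripts. Between KO and WT 15 of the 18 had an unadjusted p below 0.05 in edgeR's fit, and DESeq2 called 12. After adjustment edgeR called 6 higher, among them *Msx2* (4.34, adjusted p = 0.0233, edgeR) and *Lef1* (2.49, 0.0405) but not *Foxn1* (2.36, 0.0569). These calls of *Msx2* and *Lef1* were lost without any 1 WT library, without KO replicate 1 or 3 (adjusted p up to 0.110 and 0.151) and among the 7 libraries without Y-linked transcripts, and that of *Lef1* also without WT+ZnO NPs replicate 2 or 3 and with the term for Y-linked transcripts. *Foxn1* was called in this comparison without KO+ZnO NPs replicate 1 or 3, with no filter, with DESeq2 and with edgeR on only the groups compared. KO replicate 1, the richest library in members, held less *Lef1* than each WT+ZnO NPs library.

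Of the other 13 regulators, 8 were called higher for WT+ZnO NPs against WT. *Shh*, the hedgehog ligand of the matrix, had a log2 fold change of 7.48 (adjusted p = 0.00164, edgeR), *Msx1* one of 3.95 (0.000727), *Edar*, the ectodysplasin receptor, one of 3.72 (0.00816), *Wnt10b* one of 3.53 (0.000352) and *Gata3*, a factor of the inner root sheath, one of 1.73 (0.000233). Smaller were *Foxq1* (1.68, adjusted p = 0.00487, edgeR), *Bmp4* (1.36, 0.00290) and *Wnt10a* (0.97, 0.00127). The calls of *Foxq1* and *Bmp4* were lost with the term for Y-linked transcripts alone, and those of the other 6 were past the threshold in every alternative run for them. The 5 regulators that were not called were *Nog* (1.21, adjusted p = 0.107, edgeR), *Ovol1* (0.83, 0.182), *Bmpr1a* (0.43, 0.0696), *Ctnnb1*, which encodes beta-catenin (0.39, 0.119), and *Prdm1* (-0.56, 0.151). *Bmpr1a* and *Ctnnb1* were called without KO+ZnO NPs replicate 2 or 3, with library size only and with edgeR on only the groups compared, *Nog* in both fits of only those groups, and *Prdm1* in the DESeq2 fit of them and with the term for Y-linked transcripts. *Bmpr1a* was also called by DESeq2 on only the groups compared. The correlation of the 18 with the members' pattern ranged from 0.0825 for *Prdm1*, which was highest in KO replicates 1 and 2 at 66.3 and 66.4 CPM, to 0.925 for *Foxn1*. Between KO and WT *Wnt10a* (0.86, adjusted p = 0.0146, edgeR), *Gata3* (0.83, 0.0448) and *Shh* (4.66, 0.0489) were called higher. All 3 calls were lost among the 7 libraries without Y-linked transcripts and without WT replicate 2 or 3. Those of *Gata3* and *Shh* were also lost without WT replicate 1, KO replicate 1 or 3 or any 1 WT+ZnO NPs library and with the term for Y-linked transcripts, that of *Gata3* without KO replicate 2 and with library size only, and that of *Shh* without any 1 KO+ZnO NPs library.

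The interaction was called lower for 7 of the 18 regulators and for 4 of the 9 inner root sheath genes, beside 3.59% of all genes, and for 0 of the 6 other hair keratins and 0 of the 55 keratin-associated proteins. At an unadjusted p below 0.05 these last counts were 4 and 26 in edgeR's fit, and DESeq2 called 5 and 34, beside 7.89% of the genes it tested. For *Hoxc13* it was -6.43 (adjusted p = 0.0148, edgeR), for *Lef1* -4.31 (0.0187), for *Msx2* -5.70 (0.0236) and for *Foxn1*, which was not called, -2.98 (0.0707), although DESeq2 called it and so did edgeR without KO+ZnO NPs replicate 1. It was also called for *Shh* (-6.20, adjusted p = 0.0408, edgeR), *Msx1* (-3.03, 0.0439), *Wnt10b* (-2.51, 0.0390) and *Gata3* (-1.29, 0.0322), calls lost with the term for Y-linked transcripts and without any 1 WT library, and past the threshold in 6 of 18, 8 of 19, 8 of 19 and 12 of 19 alternatives. For KO+ZnO NPs against KO, *Wnt10a* was called higher (0.56, adjusted p = 0.0491, edgeR) and *Prdm1* lower (-0.99, 0.0497), past the threshold in 5 and 8 of the 22 alternatives run, with adjusted p up to 0.153 and 0.156 with 1 library left out. For KO+ZnO NPs against WT+ZnO NPs edgeR called 0, with 3 at an unadjusted p below 0.05 and 1 called by DESeq2. The interaction calls of *Hoxc13*, *Lef1* and *Msx2* were lost with the term for Y-linked transcripts, with which 32 of 18822 genes were called lower. That of *Lef1* was lost without WT replicate 2 or WT+ZnO NPs replicate 3 (adjusted p up to 0.0507), and that of *Msx2* without KO replicate 1 or 3, WT replicate 1 or 2 or WT+ZnO NPs replicate 3 (up to 0.0726).

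Markers of other cells of the skin moved in the same comparisons, and their part in the levels of the members was not tested. For WT+ZnO NPs against WT, 20.8% of all genes were called higher. Called higher were 10 of 10 proliferation markers, 7 of 8 pigment cell markers, 4 of 8 dermal papilla markers and 4 of 8 bulge stem cell markers, with 0, 1, 0 and 2 called lower. Companion layer and outer root sheath keratins had 2 higher and 1 lower of 5, and sebaceous gland markers 2 higher of 8, near the share of all genes. In the other direction, 4 of 9 immune cell markers, 4 of 7 fat cell markers, 4 of 7 interfollicular epidermis markers and 3 of 7 dermal fibroblast markers were called lower, where 22.1% of all genes were, with 0, 0, 1 and 1 called higher. Of 8 skeletal muscle markers edgeR called 0, with 1 at an unadjusted p below 0.05 and 1 called by DESeq2. In KO against WT, edgeR called 3 of 8 pigment cell markers and 2 of 5 companion layer keratins higher, where 4.61% of all genes were. Of 10 proliferation markers 0 were called (0 also at an unadjusted p below 0.05 and by DESeq2). Bulge and dermal papilla markers had 1 call higher and 1 lower each, and each other list had at most 1 call by edgeR. DESeq2 called more in this comparison, where it called 3036 of the 21311 genes it tested. It called 7 of 8 pigment cell, 5 of 8 dermal papilla, 4 of 8 bulge, 3 of 7 interfollicular epidermis and 3 of 7 dermal fibroblast markers. In edgeR's fit 7, 5, 5, 3 and 4 genes of these lists had an unadjusted p below 0.05. Proliferation markers summed to 238 to 479.6 CPM in WT, 659 to 1359 CPM in WT+ZnO NPs, 228 to 455 CPM in KO and 691 to 804 CPM in KO+ZnO NPs. KO replicate 1, with the most hair shaft keratin, was at 266 CPM, within the WT range, whereas KO+ZnO NPs replicate 3, with 35.5 CPM of members, was at 742 CPM. Epidermal *Krt14* was at 2213 to 6395 CPM and no marker in these lists was at 0 in all 12 libraries.

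The 3 genes with the highest mean level in each of these lists had the following log2 fold changes for WT+ZnO NPs against WT. The cycling genes *Mki67* (1.97, adjusted p = 0.00204, edgeR), *Top2a* (1.51, 0.00497) and *Ccnb1* (1.47, 0.00938) were called higher, and so were the pigment genes *Pmel* (5.91, 0.000276), *Tyrp1* (4.47, 0.000486) and *Dct* (4.44, 0.000518). Of the dermal papilla genes *Corin* (4.95, adjusted p = 0.00373, edgeR) and *Wif1* (4.07, 0.000143) were called higher and *Fgf7* was not called (-0.13, 0.630). Of the bulge genes *Lhx2* (3.73, adjusted p = 0.00127, edgeR) and *Krt15* (1.62, 0.0483) were called higher and *Cd34* lower (-1.88, 0.000535). *Krt17* of the companion layer list was called higher for WT+ZnO NPs (2.04, adjusted p = 0.000735, edgeR) and for KO (1.84, 0.00896) against WT, while *Krt6a* (-0.12, 0.897) and *Krt16* (-2.22, 0.0685) were not called for WT+ZnO NPs against WT. Epidermal *Krt5* was called higher (0.95, adjusted p = 0.0181, edgeR), *Krt10* lower (-2.31, 0.00436) and *Krt14* was not called (0.16, 0.696). The macrophage genes *Cd68* (-4.46, adjusted p = 5.91e-05, edgeR) and *Lyz2* (-3.49, 0.000142) and the fat cell genes *Cidec* (-2.57, 0.0239) and *Fabp4* (-2.47, 0.00112) were called lower, while *Mcpt4* (-1.57, 0.115) and *Cfd* (-1.31, 0.281) were not called. The collagen gene *Col1a1* was called higher (1.69, adjusted p = 0.0394, edgeR) but not *Col1a2* (1.40, 0.0535) or *Col3a1* (0.28, 0.691). The sebaceous genes *Soat1* (1.37, adjusted p = 0.0853, edgeR), *Fasn* (0.44, 0.602) and *Scd1* (0.36, 0.642) and the muscle genes *Myh1* (1.48, 0.0948), *Atp2a1* (1.13, 0.168) and *Acta1* (0.97, 0.248) were not called.

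Some of these calls changed with 1 library. That of *Krt15* was lost without any 1 library of WT or WT+ZnO NPs, KO replicate 3 or KO+ZnO NPs replicate 1, that of *Krt5* without WT replicate 2 or WT+ZnO NPs replicate 1, that of *Cidec* without WT replicate 3 or WT+ZnO NPs replicate 1 or 3, and that of *Col1a1* without WT replicate 1 or 2 or WT+ZnO NPs replicate 2 and in both fits of only the groups compared. The KO call of *Krt17* was lost without WT replicate 2 and among the 7 libraries without Y-linked transcripts. With the term for Y-linked transcripts the calls of *Krt15*, *Krt5*, *Col1a1* and *Ccnb1* were lost and *Soat1* was called. *Krt16* was called without KO+ZnO NPs replicate 2 or 3 or WT+ZnO NPs replicate 1, *Col1a2* without WT+ZnO NPs replicate 1 or 3, *Myh1* without KO+ZnO NPs replicate 1 or WT replicate 1, *Soat1* and *Mcpt4* without KO+ZnO NPs replicate 3, and *Cfd* without KO+ZnO NPs replicate 2. DESeq2 on all libraries called *Krt16*, *Soat1*, *Myh1* and *Col1a2*, and *Col1a2* was also called with library size only and with at least 10 counts in every library. On only the groups compared, both tools called *Krt16*, *Soat1*, *Myh1*, *Cfd* and *Mcpt4*, and DESeq2 also *Acta1* and *Atp2a1*.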

How the data were processed

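RNA of mouse dorsal skin was sequenced in 12 libraries, which were grouped by the sample titles into 4 groups of 3. The authors deposited whole-number counts per gene without normalization. The submitters' processing notes name HISAT2 2.0.5 and mm10, whereas the paper's methods name STAR and HTSeq, and the library kit also differs between labels and paper. Strand use in counting is not given in the sources used here. Reads shared by near-identical keratin genes may be split or lost.

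Of 52636 genes, 52403 had a symbol in GENCODE release M21, 0 entries named no gene, and 18822 passed edgeR's filter. The libraries of a group are biological replicates by the paper's methods, and none were merged. Within a group they differed beyond sampling noise (chi-square per degree of freedom 37.4 to 161.8). Genes were tested with edgeR 4.0.16 in R 4.3.3 (quasi-likelihood F test) with TMM factors, all 12 libraries in one fit, and Benjamini-Hochberg adjustment over all genes tested, with calls at an adjusted p below 0.05. Standard errors are approximate. Exact (Clopper-Pearson) 95% intervals of pooled ratios and the floor of 3 counts per group cover counting error only. Levels per kilobase use the union of annotated exons. As alternatives, RLE factors or no factors were used, DESeq2 1.42.0 was run on all libraries or on the groups compared alone, edgeR was run on the groups compared alone, and further fits had no filter, at least 10 counts in every library, a replicate block, a term for Y-linked transcripts, and each library left out in turn. The sample titles do not say whether the replicate numbers pair the libraries. Deviations of same-numbered libraries from their group means correlated at 0.395, 0.130 and 0.143 for KO with KO+ZnO NPs. For WT with WT+ZnO NPs they correlated at 0.0211, 0.103 and 0.112. Libraries with different numbers were not compared in this way, so a pairing was not established. A fit of the libraries without Y-linked transcripts was added after seeing the data. The steps were tested on simulated data.

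Named genes were all members, the 3 genes of each list with the highest mean CPM, all other hair keratins and regulators tested, and the 10 genes most like the members. The members and the 16 lists were chosen with earlier results of these data known. The Tpra1 promoter was named after its sequence was seen.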

Additional observations from a re-analysis of the deposited data

Results flagged for a closer look

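The difference between the effects of ZnO NPs in the groups labelled KO and WT passed the threshold of the interaction test of edgeR's fit over 12 libraries for 7 of the 18 regulators, at -6.43 on the log2 scale for *Hoxc13*, -6.20 for *Shh*, -5.70 for *Msx2*, -4.31 for *Lef1*, -3.03 for *Msx1*, -2.51 for *Wnt10b* and -1.29 for *Gata3*. The value of the member *Krt35*, which is a description only, was -10.93. The calls of these regulators were lost with a term for Y-linked transcripts. With it the genes called lower for the interaction fell from 676 to 32 of the 18822 tested. These transcripts and ZnO NPs cannot be told apart within the WT libraries, and the *Cdc42* transcript of the WT+ZnO NPs libraries is at odds with their label. Groups of 3 libraries are too small for the check on single samples that stand apart.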

How the results depend on the processing

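The number of members called depended on the tool and on single libraries. For KO against WT it was 1 and became 8 with DESeq2 on all libraries, 8 with DESeq2 on only the groups compared, 3 with no filter, 0 with edgeR on only the groups compared (where 2 members passed the filter), 0 among the 7 libraries without Y-linked transcripts, and 0 to 4 with 1 library left out. The genes called over all genes, in either direction, were 1540 of 18822. In the same order they became 3036 of 21311, 4527 of 20836, 1398 of 33243, 2794 of 17608, 694 of 18532, and 377 to 2060. For WT+ZnO NPs against WT it was 5 and became 8 and 9 with DESeq2, 8 with edgeR on only the groups compared, 8 with the replicate block, 1 with the term for Y-linked transcripts, and 2 to 8 with 1 library left out. Over all genes it was 8085 of 18822. In the same order this became 9082 of 22561, 9322 of 22944, 8740 of 17838, 8079 of 18822, 3896 of 18822, and 5942 to 9095. For KO+ZnO NPs against WT+ZnO NPs it was 0 and became 1 with DESeq2 on all libraries, while the genes called went from 618 of 18822 to 2302 of 19441. For KO+ZnO NPs against KO it was 0 in every alternative run, where 451 to 4293 genes were called. For the interaction it was 1 and became 8 with DESeq2, 2 with no filter, 3 with the replicate block, 0 with the term for Y-linked transcripts, and 0 to 4 with 1 library left out. Over all genes it was 1633 of 18822. In the same order this became 3151 of 18198, 1086 of 33243, 1429 of 18822, 125 of 18822, and 461 to 1646. The cause of these changes was not tested, apart from the fewer members tested in the smaller fit.

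A minimum of 10 counts in every library left no member and gives no value. Deviations of same-numbered libraries from their group means correlated at 0.395, 0.130 and 0.143 for KO with KO+ZnO NPs. For WT with WT+ZnO NPs they correlated at 0.0211, 0.103 and 0.112. The lowest value among all same-numbered libraries was -0.394, for replicate 1 of WT+ZnO NPs with that of KO+ZnO NPs. Whether the numbers pair the libraries is not known. For KO+ZnO NPs against KO the replicate block left the count of members called at 0. The block also ended the KO against WT calls of *Krt71*, *Krt25*, *Tchh*, *S100a3*, *Padi3*, *Lef1* and *Shh*, the *Col1a1* call for WT+ZnO NPs and the interaction calls of *Shh*, *Msx1* and *Wnt10b*. Of 893 alternative values of the members' log2 fold changes, 72 moved by more than the standard error and 0 of those called changed sign. Of 1890 alternative values of the named tests, 264 lost and 63 gained a call, and 8 changed direction, none of them of a called gene. All were of WT+ZnO NPs against WT, *Ovol1* (-0.24), *Fgf7* (0.022) and *Scd1* (-0.11) with the term for Y-linked transcripts, and with 1 library left out *Krt6a* (-0.82 to 0.24), *Krt14* (-0.23 to 0.35) and *Col3a1* (-0.67 to 0.76). With library size only, the median log2 fold change of all genes moved to 0.16 for WT+ZnO NPs against WT, -0.11 for KO+ZnO NPs against WT+ZnO NPs and -0.13 for the interaction, and the counts of members called did not move. Depth limits the members in WT, at 0 to 46 counts per library.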
